A study of Sus scrofa with 12 samples.

Results

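The genes described here are 9 members of the mitochondrial route to apoptosis: the anti-apoptotic proteins BCL2L1, BCL2L10 and MCL1, the pore-forming effectors BAX and BAK1, the BH3-only proteins BAD, BID and BCL2L11, and the initiator caspase CASP9. They were chosen by gene symbol, and 7 of the 9 had a row under their symbol in a count table of 29329 genes, of which 17995 had enough counts to be tested. All 7 were among the genes tested. BAK1 had no row under its symbol, but the gene name table pairs the symbol with an identifier that does have a row, so its values are given apart from the 7. BCL2L10 was not analysed here. None of the 9 is an executioner caspase.

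This part of the study asked how the mitotic cyclin CCNB2 acts on maternal transcripts and on zygotic genome activation in pig embryos made by in vitro fertilisation. Sets of embryos were pooled for each of 12 SMART-seq libraries, 3 in each of 4 groups. In the groups con-2c and con-4c the embryos were blank controls, called normal embryos in the study's methods, and in si-2c and si-4c they had been injected with si-CCNB2, a small interfering RNA against CCNB2, some hours after fertilisation began. The oocytes came from Long White pigs and the semen from Landrace boars. The methods also call these controls the negative control group and list a negative control among the RNAs for injection, while the labels say blank control, so whether they were injected is not clear. Each library holds whole embryos, so RNA per cell and the number of cells cannot be told apart, and p-values measure the spread between pooled sets of embryos.

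Total counts ran from 33833611 to 39510908 in con-2c and from 27785233 to 28771777 in con-4c, while those of si-2c ran from 33270517 to 38649571 and those of si-4c from 36612707 to 38281817. Libraries of con-2c and si-4c held a count for fewer genes (18034 to 18819 and 18083 to 18231) than those of con-4c and si-2c (21181 to 21647 and 22105 to 23279), and the part of this in the results was not tested. CCNB2 itself, the target of the siRNA, stood at 464 ± 21.7 CPM (counts relative to the scaled library total, SD, n = 3) in con-2c and 475 ± 41.9 in con-4c, with 22.7 ± 5.58 in si-2c against 42.6 ± 3.65 in si-4c. Titles and tissue labels named different stages in 12 of 12 libraries. Groups here follow the titles, and reading the tissue labels instead would exchange the names of both stages in every comparison while leaving the libraries of each group together. Of the 17995 genes tested, 0.333% were called between si-4c and con-2c and 1.79% between si-2c and con-4c, against 12.5% between si-2c and con-2c and 19.0% between si-4c and con-4c. By this count each siRNA group lay closer to the control group of the other title. Whether the titles or the embryos carry this pattern was not tested, and it applies to every comparison below.

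Of 11 oocyte and early embryo markers in the table, such as ZP3 and GDF9, all 11 had a group mean above 1 CPM in each of the 4 groups, and their summed level was 19968 to 24955 CPM in con-2c and 10133 to 10908 in con-4c, with 10224 to 12082 in si-2c and 22933 to 25071 in si-4c. Most of that sum was BTG4, an adaptor for the removal of maternal mRNA, at 15431 to 20183 CPM in con-2c and 7150 to 7991 in con-4c, with 6982 to 8874 in si-2c and 18786 to 20921 in si-4c. The oocyte factor BMP15 did not follow the sum, with 835 to 914 CPM in con-2c and 960 to 1010 in con-4c, and 1166 to 1303 in si-2c and 1004 to 1075 in si-4c. The 15 cumulus and granulosa markers in the table summed to 310 to 384 CPM in con-2c and 195 to 203 in con-4c, with 188 to 216 in si-2c and 310 to 321 in si-4c. VCAN, a matrix proteoglycan, made up most of that sum, with 289 to 367 CPM in con-2c and 172 to 183 in con-4c. VIM, which encodes an intermediate filament protein and stands in the same list, differed in the way MCL1 and BID did, with 0 to 0.178 CPM in con-2c and 2.14 to 3.68 in con-4c, and 1.22 to 2.12 in si-2c and 0.174 to 0.209 in si-4c. It rose by 5.39 on the log2 scale in con-4c versus con-2c (edgeR adjusted p = 2.45e-05) and fell by 3.83 in si-4c versus con-4c (adjusted p = 1.96e-04). PTX3, a matrix protein of the cumulus, had 33, 24 and 17 counts in si-2c and at most 4 in any other library, and the receptor gene LHCGR had 2, 16 and 4 in si-2c and 0 elsewhere. The cumulus gene HAS2 was at 0 in every library of con-2c, si-2c and si-4c and reached at most 0.132 CPM in con-4c. Sperm markers, 4 in the table, summed to between 5.29 and 11.4 CPM over the groups, and 6 blood cell markers to between 3.82 and 7.79 CPM. Among the former, AKAP4 had 13, 0 and 19 counts in con-4c and 7, 23 and 54 in si-2c, with 0 in every library of con-2c and si-4c, and it passed in con-4c versus con-2c (edgeR adjusted p = 0.0258) and in si-4c versus con-4c (adjusted p = 0.0242). Among the latter, PTPRC rose by 2.08 in con-4c versus con-2c (adjusted p = 0.0154) and fell by 2.01 in si-4c versus con-4c (adjusted p = 0.0177). The part of these lists in the results below was not tested.

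Proteins of the BCL2 family decide whether the outer mitochondrial membrane stays closed. BCL2L1 (BCL-XL), MCL1 and BCL2L10 hold the effectors BAX and BAK1 in check, while BH3-only proteins such as BAD, BID and BCL2L11 (BIM) bind these guardians or engage the effectors directly. Once the membrane opens, cytochrome c joins APAF1 in the apoptosome, which activates CASP9, and CASP9 in turn cleaves the executioner caspases. Embryos at these stages carry transcripts laid down in the oocyte together with those made after the zygotic genome is switched on, and apoptosis is known to be rare before that switch.

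The guardian MCL1 and the BH3-only members BID, BAD and BCL2L11 differed between the groups, while BCL2L1 did not pass in any comparison. MCL1 averaged 1.46 CPM in con-2c and 16.7 in con-4c, with 11.2 in si-2c and 1.15 in si-4c. BID, BAD and BCL2L11 had their highest mean in con-4c and their second highest in si-2c. A gene is said here to rise or fall where edgeR's quasi-likelihood test gave an adjusted p below 0.05 over all genes tested, and to be called where the change was also at least 2-fold. In con-4c versus con-2c, 3 of the 7 members were called higher and 0 lower, where over all genes tested 14.4% passed this rule upwards and 3.25% downwards. In si-2c versus con-2c, 2 of 7 were called higher, against 10.7% of all genes, and 0 lower, against 1.80%. In si-4c versus con-4c, 4 of 7 were called lower, against 15.8%, and 0 higher, against 3.12%. In si-4c versus si-2c, 3 of 7 were called lower, against 11.9%, and 0 higher, against 1.47%. These comparisons share groups, con-2c and si-4c among them, so they are not independent of each other.

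The crossed comparisons gave fewer calls. In si-4c versus con-2c edgeR called 0 of the 7 members, 0 had an unadjusted p below 0.05, and DESeq2 and limma voom each called 0, where 0.333% of all genes were called. In si-2c versus con-4c edgeR called 0 and DESeq2 0, while limma voom called 2 and 4 members had an unadjusted p below 0.05 by edgeR. The background there was 1.79% of genes called. The interaction, which is the change from the 2c to the 4c title in siRNA embryos minus that in controls, was called lower for 5 of 7 members, against 22.5% of all genes, and higher for 0, against 9.87%. Over the 7 members the median change on the log2 scale was 2.20 in con-4c versus con-2c and 1.72 in si-2c versus con-2c, where the medians over all genes were 0.11 and 0.12. The value of 2.20 is that of CASP9, which did not pass, and without con-2c replicate 2 these medians became 3.29 and 1.12. It was -3.85 in si-4c versus con-4c, or -3.55 with CASP9 set at its bound, where the median over all genes was -0.11. The groups of libraries did not overlap for 4 of 7 members in con-4c versus con-2c, against 48.6% of all genes tested. They did not overlap for 4 of 7 in each of si-2c versus con-2c (41.7% of genes), si-4c versus con-4c (50.9%), si-4c versus si-2c (42.8%) and si-2c versus con-4c (27.1%), and for 0 of 7 in si-4c versus con-2c (14.1%).

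**Figure D1:**
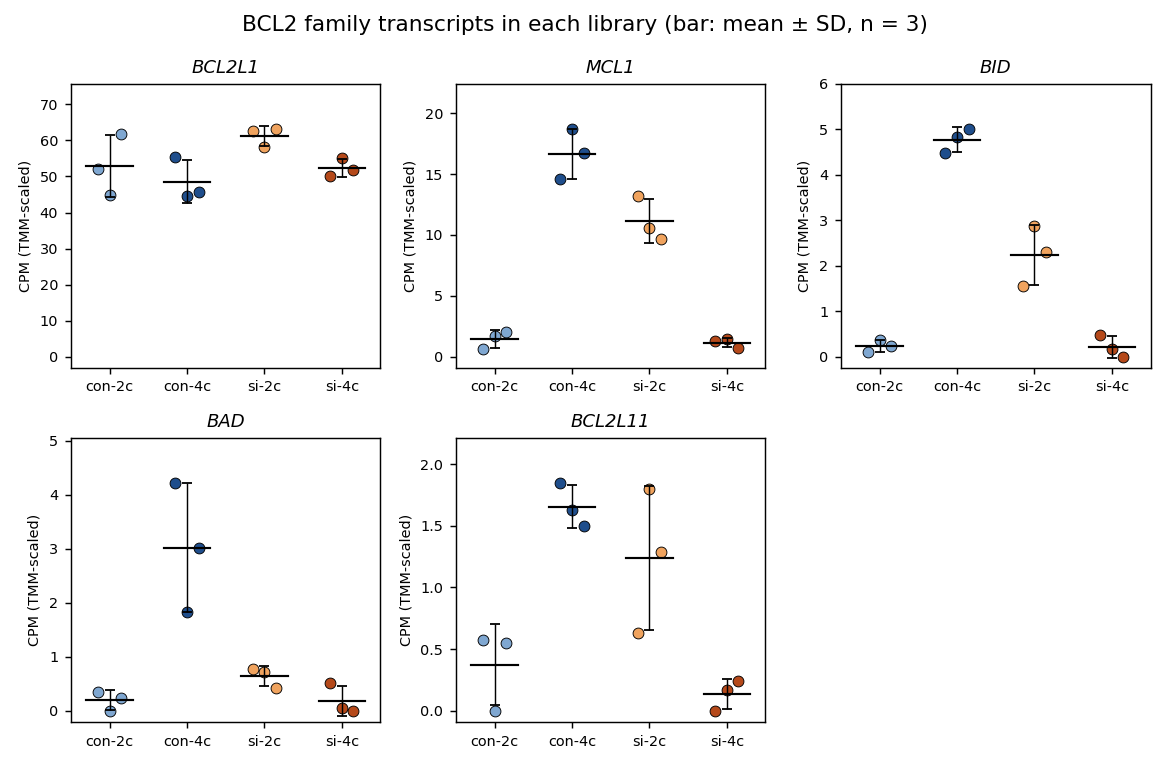
Level of 5 members in CPM on linear axes by group, with a point for each of the 3 libraries, a line for the mean and a bar for the SD. MCL1 and BID are high in con-4c and si-2c and low in con-2c and si-4c, while BCL2L1 lies between 44.5 and 63.1 CPM in all 12 libraries.

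BCL2L1 (ENSSSCG00000035357, chromosome 17, 35366139 to 35415798 in the RefSeq annotation of Sscrofa11.1) encodes BCL-XL, the guardian that holds BAX in check. Its counts were 1636, 1510 and 2013 in con-2c and 1684, 1344 and 1402 in con-4c, with 2566, 2170 and 2942 in si-2c against 1673, 1908 and 1737 in si-4c. Scaled, its level was 52.9 ± 8.55 CPM in con-2c and 48.5 ± 6.01 in con-4c, with 61.3 ± 2.73 in si-2c and 52.4 ± 2.54 in si-4c (SD, n = 3 each). The si-2c libraries lay above those of con-4c and si-4c and overlapped those of con-2c. It did not pass in any of the 7 comparisons. The log2 fold change was -0.13 in con-4c versus con-2c (95% interval -0.37 to 0.12, edgeR adjusted p = 0.438), which turned to 0.14 by library totals, and 0.11 in si-4c versus con-4c (-0.13 to 0.35, adjusted p = 0.494), which turned to -0.15.

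BCL2L1 came closest to a change where si-2c was compared with others. It was 0.21 higher on the log2 scale than in con-2c (95% interval -0.03 to 0.45, edgeR adjusted p = 0.188) and 0.34 higher than in con-4c (0.10 to 0.58, adjusted p = 0.0886). The difference from con-4c passed in 6 of 19 alternatives, with adjusted p from 0.0254 to 0.291 over the 19, among them DESeq2 (0.0409), both groups compared alone (0.0467), and the fits without con-2c replicate 2 (0.0343), con-2c replicate 3 (0.0254) and con-4c replicate 1 (0.0484). Scaled by library totals in place of TMM factors, the difference from con-2c became 0.60 (adjusted p = 0.00341) and si-4c versus si-2c became -0.61 (adjusted p = 0.00319), and both then passed. The median of all genes shifted with it, from 0.12 to 0.52 in si-2c versus con-2c, so relative to that median BCL2L1 was 0.09 higher by TMM and 0.08 higher by totals. Without con-2c replicate 3 the difference from con-2c was 0.31 and also passed (adjusted p = 0.0480).

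MCL1 (ENSSSCG00000039314, chromosome 4, 98562092 to 98567014) encodes a short-lived guardian that binds BAK1 and BH3-only proteins. Libraries of con-2c held 21, 56 and 67 counts and those of con-4c 444, 564 and 514, while those of si-2c held 541, 395 and 452 and those of si-4c 44, 49 and 24. In CPM this was 1.46 ± 0.717, 16.7 ± 2.04, 11.2 ± 1.81 and 1.15 ± 0.379 (SD, n = 3 each, in the same order). Every con-4c and si-2c library was above every con-2c and si-4c library. MCL1 rose 11.3-fold in con-4c versus con-2c (3.50 on the log2 scale, SE 0.31, edgeR adjusted p = 1.21e-07) and 7.58-fold in si-2c versus con-2c (2.92, SE 0.30, adjusted p = 1.49e-06). It fell in si-4c versus con-4c by 3.85 on the log2 scale (14.4-fold lower, SE 0.31, adjusted p = 5.09e-08) and fell by 3.27 versus si-2c (9.65-fold lower, SE 0.31, adjusted p = 5.73e-07).

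The crossed comparisons of MCL1 were small beside these. In si-4c versus con-2c the log2 fold change was -0.35 (95% interval -1.05 to 0.36, edgeR adjusted p = 0.805), and the libraries overlapped. In si-2c versus con-4c it was -0.58 (-1.14 to -0.02, adjusted p = 0.235), although all 3 si-2c libraries, at 9.70 to 13.2 CPM, lay below the lowest con-4c library at 14.6 CPM. The interaction was -6.77 (SE 0.44, adjusted p = 1.53e-09). Over the 12 fits that each left out a library, the change of MCL1 in con-4c versus con-2c ran from 3.11 to 3.75 and that in si-4c versus con-4c from -4.03 to -3.60.

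BID (ENSSSCG00000000769, chromosome 5, 69849007 to 69874647) encodes the BH3-only protein that links death receptors to mitochondria once a caspase has cut it. It had 3, 12 and 8 counts in con-2c and 136, 146 and 154 in con-4c, with 64, 107 and 107 in si-2c against 16, 6 and 0 in si-4c. Mean levels were 0.233 ± 0.131, 4.77 ± 0.271, 2.24 ± 0.655 and 0.218 ± 0.243 CPM (SD, n = 3 each, in the same order). No con-2c or si-4c library reached the lowest library of con-4c or si-2c. All si-2c libraries, at 1.56 to 2.87 CPM, lay below those of con-4c at 4.48 to 5.01. That difference was -1.09 on the log2 scale (SE 0.52, edgeR adjusted p = 0.258) and did not pass, but it passed by limma voom (-1.14, adjusted p = 0.0115) and with both groups compared alone (-1.05, adjusted p = 0.0259). BID rose 20.1-fold in con-4c versus con-2c (4.33 on the log2 scale, SE 0.63, edgeR adjusted p = 4.01e-05) and 9.43-fold in si-2c versus con-2c (3.24, SE 0.62, adjusted p = 7.82e-04). In si-4c it fell by 4.43 relative to con-4c (SE 0.64, adjusted p = 3.35e-05) and fell by 3.34 relative to si-2c (SE 0.63, adjusted p = 6.47e-04). Without si-4c replicate 1, which held 16 of the 22 BID counts of its group, these became -5.71 and -4.62.

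BAD (ENSSSCG00000013033, chromosome 2, 7831192 to 7842864) encodes a BH3-only protein that binds BCL2L1 and is kept inactive by phosphorylation. Its counts were 11, 0 and 8 in con-2c and 128, 55 and 93 in con-4c, with 32, 27 and 20 in si-2c against 17, 2 and 0 in si-4c. The con-4c libraries, at 1.82 to 4.21 CPM, stood above the other 9, while si-2c (0.429 to 0.780 CPM) lay above con-2c (0 to 0.350) and overlapped si-4c (0 to 0.510). BAD rose 15.1-fold in con-4c versus con-2c (3.91 on the log2 scale, SE 0.94, edgeR adjusted p = 0.00356) and fell in si-4c versus con-4c by 3.98 (SE 0.94, adjusted p = 0.00315). In si-2c it differed from con-2c by 1.69 (95% interval -0.27 to 3.64, adjusted p = 0.196) and from con-4c by -2.23 (SE 0.84, adjusted p = 0.131), and neither passed.

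The size of the BAD changes rested on single libraries. In con-4c versus con-2c it was 3.29 without con-2c replicate 2 and 4.55 without con-2c replicate 1, and it passed in both fits. In si-4c, replicate 1 held 17 of the 19 counts of that group, and without it the change versus con-4c was -6.52 and that versus si-2c went from -1.75 (edgeR adjusted p = 0.180) to -4.29 (adjusted p = 0.0119), which then passed. The difference of BAD between si-2c and con-4c passed only by limma voom (adjusted p = 0.0103), without the filter on low counts (0.0439) and where both groups were compared alone (0.00479).

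BCL2L11 (ENSSSCG00000060053, chromosome 3, 45156791 to 45202996) encodes BIM, the BH3-only protein that binds every guardian of the family. Counts were 18, 0 and 18 in con-2c and 56, 49 and 46 in con-4c, with 26, 67 and 60 in si-2c against 0, 6 and 8 in si-4c. In CPM the means were 0.375 ± 0.325, 1.65 ± 0.176, 1.24 ± 0.582 and 0.137 ± 0.123 (SD, n = 3 each, in the same order). Each con-4c library and each si-2c library was above all of con-2c and si-4c. BCL2L11 fell in si-4c versus con-4c by 3.55 (11.7-fold lower, SE 0.96, edgeR adjusted p = 0.00764) and versus si-2c by 3.13 (8.78-fold lower, SE 0.95, adjusted p = 0.0198). The fall versus si-2c no longer passed without si-2c replicate 2 (-2.77, adjusted p = 0.0732) or without si-4c replicate 1 (-2.57, adjusted p = 0.0576). Without si-4c replicate 3 both falls were larger (-4.18 versus con-4c and -3.76 versus si-2c).

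Compared with con-2c the same gene did not pass in con-4c or in si-2c. The log2 fold change was 2.14 in con-4c (95% interval 0.29 to 3.98, edgeR adjusted p = 0.0670) and 1.72 in si-2c (-0.11 to 3.54, adjusted p = 0.156). For con-4c the call changed in 5 of 18 alternatives, among them DESeq2 (2.18, adjusted p = 0.0379), limma voom (3.33, adjusted p = 0.0189) and the fit without si-4c replicate 1 (2.14, adjusted p = 0.0391). Its second con-2c library, at 0 counts, was the lowest of that group, and without it the change in con-4c was 1.51.

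**Figure D2:**
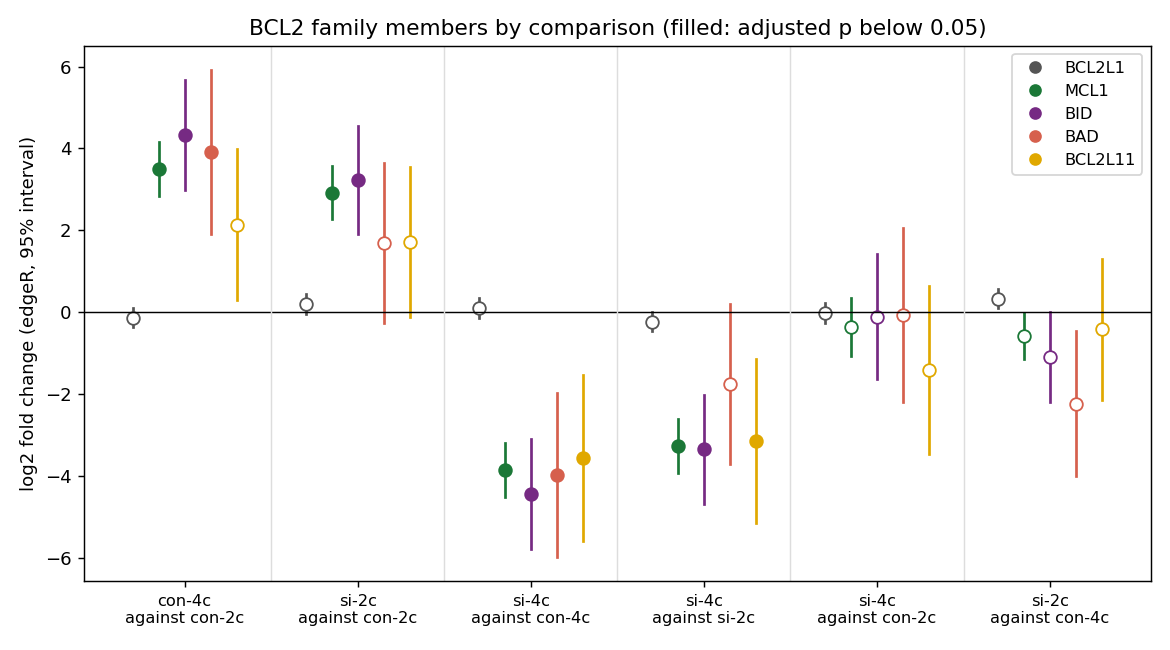
Log2 fold change of 5 members in 6 comparisons by edgeR, with 95% intervals, where filled points have an adjusted p below 0.05. MCL1 and BID lie above 0 in both comparisons with con-2c at the left and below 0 in both comparisons of si-4c in the middle, while the crossed comparisons at the right hold no filled point.

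BAX (ENSSSCG00000061946, chromosome 6, 54222341 to 54228150), which forms the pore in the outer membrane, was close to the limit of detection. It had 0, 31 and 22 counts in con-2c and 7, 0 and 9 in con-4c, with 9, 0 and 20 in si-2c against 11, 9 and 10 in si-4c. A count of 0 allows up to 3 counts, which is 0.0644 to 0.0994 CPM in these libraries, for counting error only. All 4 groups overlapped, and BAX did not pass in any of the 7 comparisons. Over the 6 comparisons of a pair of groups its log2 fold change ran from -1.59 in con-4c versus con-2c (95% interval -4.65 to 1.47, edgeR adjusted p = 0.438) to 0.75 in si-4c versus con-4c (-2.30 to 3.80, adjusted p = 0.734), so changes of severalfold in either direction lay within the intervals. Its interaction was 2.03 (-2.24 to 6.29, adjusted p = 0.451).

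BAK1, the other effector, is the gene whose identifier ENSSSCG00000001516 stands in the table without a symbol. That row held 7, 7 and 0 counts in con-2c and 12, 19 and 7 in con-4c, with 8, 0 and 16 in si-2c against 0, 18 and 0 in si-4c. Only si-4c replicate 2 had a count in its group. The row did not pass in any comparison, and the log2 fold change in con-4c versus con-2c was 1.52 (95% interval -1.99 to 5.02, edgeR adjusted p = 0.529). Thus neither effector had more than 31 counts in a library.

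CASP9 (ENSSSCG00000003460, chromosome 6, 74707597 to 74730033) encodes the caspase that the apoptosome activates. It had 0, 4 and 0 counts in con-2c and 0, 8 and 10 in con-4c, with 0, 12 and 15 in si-2c against 0 in all 3 libraries of si-4c. Summed over a group, its 18 counts in con-4c and 27 in si-2c stood against 0 in si-4c, which with a floor of 3 counts over the group makes CASP9 at least 6.66-fold lower than in con-4c and at least 7.30-fold lower than in si-2c. These bounds cover the counting of 0 in si-4c only and take the counts of the other group as exact, without the spread between libraries. The fitted log2 change had a 95% interval of -11.03 to -0.55 versus con-4c and of -11.15 to -0.69 versus si-2c. Each of these groups also held a library at 0, so the groups overlapped. The difference did not pass versus con-4c (edgeR adjusted p = 0.0794) or versus si-2c (adjusted p = 0.0864). Only its interaction passed, at an adjusted p of 0.0435, and it passed in 5 of 17 alternatives, with adjusted p from 0.0245 to 0.135.

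**Figure D3:**
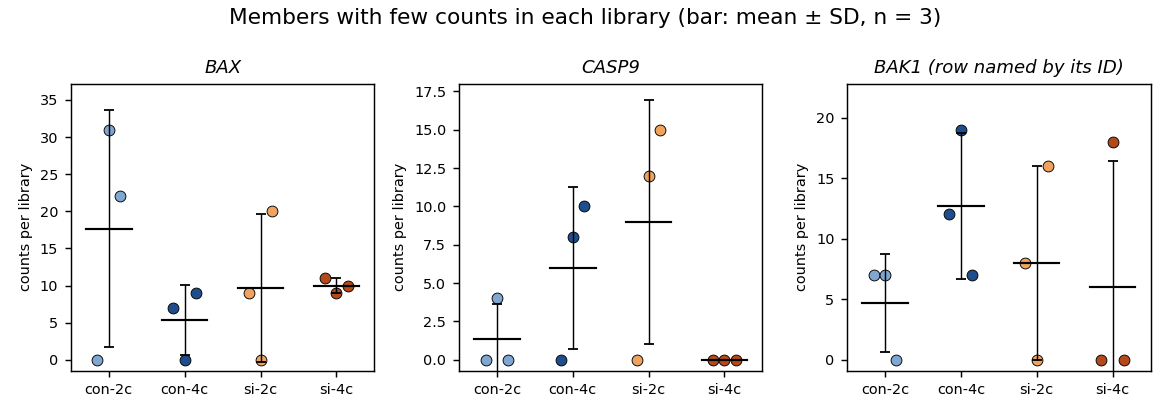
Counts per library of BAX, CASP9 and the row paired with BAK1, by group, with a point for each library, a line for the mean and a bar for the SD. No library exceeds 31 counts, and the 3 si-4c libraries hold 0 counts of CASP9.

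Among the other caspases, CASP6, which cuts nuclear lamins, had 9.77 ± 1.81 CPM in con-2c and 4.30 ± 1.65 in con-4c, with 4.22 ± 0.717 in si-2c and 10.7 ± 0.984 in si-4c (SD, n = 3 each). The libraries of con-2c and si-4c all lay above those of con-4c and si-2c. It fell by 1.18 in con-4c versus con-2c (SE 0.25, edgeR adjusted p = 0.00131) and rose by 1.32 in si-4c versus con-4c (SE 0.25, adjusted p = 5.17e-04). By library totals both directions held (-0.91 and 1.07). CASP6 thus changed in the opposite direction to MCL1 and BID.

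The other genes of the pathway were counted together, the members and BAK1 left out, in lists whose choice was not independent of these data. Of 71 such genes tested, 16 rose and 15 fell in con-4c versus con-2c (10 called higher and 3 lower), where 20.7% of all genes tested rose and 15.1% fell. In si-4c versus con-4c 17 rose and 14 fell (4 called higher and 11 lower), where 15.1% of all genes rose and 21.7% fell. In si-2c versus con-2c 11 rose and 11 fell, beside 16.6% and 12.3% of all genes, and in si-4c versus si-2c 13 rose and 13 fell, beside 12.1% and 16.9%. In si-4c versus con-2c edgeR found 0 rising and 0 falling, where 0.106% of all genes rose and 0.567% fell. In si-2c versus con-4c 3 rose and 6 fell, beside 2.22% and 5.32%. The median change of these genes on the log2 scale was 0.14 in con-4c versus con-2c and 0.02 in si-4c versus con-4c, beside 0.11 and -0.11 over all genes.

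Among BH3-only genes outside the members, PMAIP1 (NOXA), which binds MCL1 and leads it to degradation, had 1.57 ± 0.691 CPM in con-2c and 12.1 ± 1.63 in con-4c, with 9.33 ± 0.397 in si-2c and 1.91 ± 0.328 in si-4c (SD, n = 3 each). It rose by 2.94 in con-4c versus con-2c (SE 0.27, edgeR adjusted p = 2.11e-07) and by 2.57 in si-2c versus con-2c, and it fell by 2.65 in si-4c versus con-4c and by 2.28 versus si-2c. Its 2 highest group means were in con-4c and si-2c, as for MCL1. BMF, the other BH3-only gene tested, had means of 1.93 CPM in con-2c and 2.57 in con-4c, with 1.75 in si-2c and 2.42 in si-4c, and it did not pass in any comparison. Among anti-apoptotic genes, BCL2 had at most 32 counts in a library and did not pass in any comparison (0.36 in si-4c versus con-4c, 95% interval -2.73 to 3.45).

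Genes that act after the membrane opens differed among themselves. DIABLO, which frees caspases from XIAP, had means of 2.51 CPM in con-2c, 6.40 in si-2c, 1.95 in si-4c and 16.1 in con-4c. It rose by 2.68 in con-4c versus con-2c (SE 0.23, edgeR adjusted p = 1.17e-07), fell by 3.04 in si-4c versus con-4c (SE 0.24, adjusted p = 3.22e-08) and also fell in si-2c versus con-4c, by 1.33 (SE 0.22, adjusted p = 9.10e-04). HTRA2, a protease with the same role, rose by 3.26 in con-4c versus con-2c (adjusted p = 0.0397) and fell by 4.58 in si-4c versus con-4c (adjusted p = 0.0106). Its 15 counts in con-2c and its 6 in si-4c each lay in 1 library, so neither size is firm, and with a library left out the rise passed in 5 of 12 fits and the fall in 12 of 12. CYCS, the cytochrome c gene, went the way of CASP6, with means of 485 and 568 CPM in con-2c and si-4c and of 287 and 299.7 CPM in con-4c and si-2c, a fall of 0.76 in con-4c versus con-2c and a rise of 0.98 in si-4c versus con-4c. APAF1, the scaffold of the apoptosome, lay between 36.3 and 47.8 CPM in all 12 libraries and did not pass in any comparison, whereas by library totals it passed in 4 (0.51 for con-4c and 0.57 for si-2c, each versus con-2c, with -0.30 for si-4c versus con-4c and -0.36 versus si-2c, edgeR adjusted p from 4.07e-04 to 0.0340) and in the interaction (-0.87, adjusted p = 1.20e-04). The medians of all genes by totals were 0.38, 0.52, -0.37 and -0.51. By totals CYCS kept its directions (-0.47 and 0.73).

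Of the genes that act on the members, TPT1, a binding partner of MCL1 and BCL2L1, rose by 2.63 in con-4c versus con-2c (SE 0.14, edgeR adjusted p = 3.21e-10) and fell by 2.64 in si-4c versus con-4c. HUWE1, the ubiquitin ligase of MCL1, rose by 1.28 and fell by 1.28 in the same comparisons, with means of 17.7 CPM in con-2c and 43.1 in con-4c. YWHAE, a 14-3-3 protein of the family that holds phosphorylated BAD in the cytosol, fell by 0.92 in con-4c versus con-2c (SE 0.10, adjusted p = 1.68e-06) and rose by 0.62 in si-4c versus con-4c (SE 0.10, adjusted p = 1.24e-04), and it fell by 1.21 in si-2c versus con-2c (SE 0.10, adjusted p = 1.30e-07). Of the other 14-3-3 genes tested, YWHAH and YWHAZ passed in the same directions in these comparisons, while YWHAB and YWHAQ did not pass in them. SFN, also of this family, had means of 8.52 CPM in con-2c and 7.07 in con-4c, with 8.38 in si-2c and 8.20 in si-4c. BCL2L15, a little-studied relative of the family, rose by 5.04 in con-4c versus con-2c (SE 0.34, adjusted p = 4.53e-09) and fell by 3.62 in si-4c versus con-4c (SE 0.30, adjusted p = 6.58e-08). Among death receptors and their adaptors, FADD fell by 4.39 (adjusted p = 0.00255) and FAS by 4.56 (adjusted p = 0.00159) in si-4c versus con-4c, where 4 of 8 genes tested in that class fell, beside 21.7% of all genes. The 13 FADD counts and the 6 FAS counts of si-4c each lay in 1 library, so the size of both falls rests on it, although each passed in 12 of 12 fits that left out a library.

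**Figure D4:**
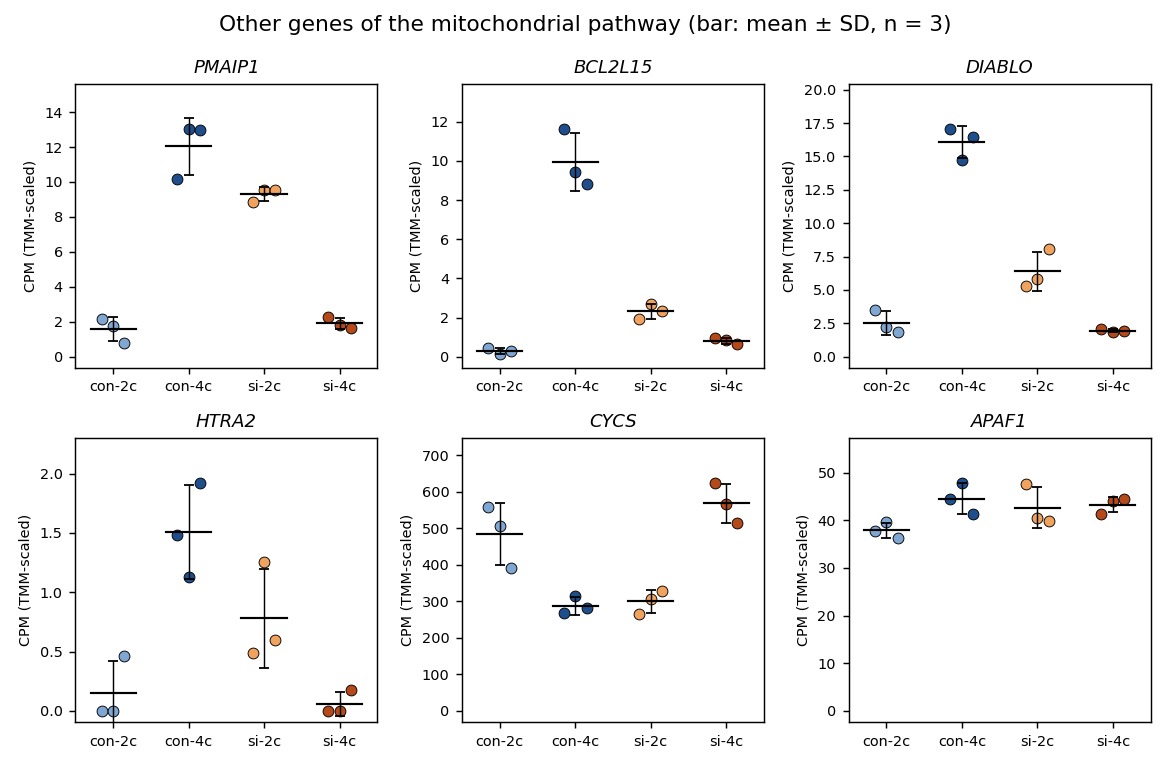
Level of 6 other genes of the pathway in CPM on linear axes, with a point for each library, a line for the mean and a bar for the SD. PMAIP1, BCL2L15, DIABLO and HTRA2 have their highest mean in con-4c, CYCS has its highest in si-4c, and APAF1 lies between 36.3 and 47.8 CPM in all libraries.

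Correlations were taken across the 12 libraries, which lie in 4 groups and differ in depth. The log2 CPM of MCL1 and BID had a Pearson r of 0.96, and that of BAD and BID 0.85. For MCL1 it was 0.79 with BAD and 0.73 with BCL2L11. BCL2L1 had an r of 0.08 with MCL1, -0.04 with BID and -0.01 with BAD. These are descriptions of 4 groups of libraries and carry no test. The 3 genes most like MCL1, among those with a symbol and a mean of at least 5 CPM, were PABPC1 (r = 0.99), EXOSC3 (0.99) and HNRNPL (0.99). Those most like BID were MED11 (0.97), MAK (0.97) and DKKL1 (0.97), and those most like BAD were MCU, IPO9 and RPSA (0.92 each). For BCL2L11 they were CCNJ (0.94), UNC80 (0.94) and POLR3D (0.91), and for BCL2L1 they were IDS (0.91), PRRT1B (0.89) and SPATA2 (0.88). BAX was most like GLMN (0.77), MYO1E (0.76) and NXPE3 (0.72), and CASP9 most like HOMER1 (0.86), ERCC8 (0.80) and IYD (0.78), with few counts behind each.

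Within a library, a ratio of 2 members depends on the scaling of libraries only through the CPM added. The log2 ratio of BAD to BCL2L1, with 0.5 CPM added to each, was -6.28 ± 0.29 in con-2c and -3.85 ± 0.38 in con-4c, with -5.77 ± 0.29 in si-2c and -6.33 ± 0.59 in si-4c (SD, n = 3 each). The ratio of BAX to BCL2L1 was -5.81 ± 0.86, -6.20 ± 0.32, -6.47 ± 0.39 and -6.05 ± 0.13 in the same order. So BAD was higher relative to BCL2L1 in con-4c than in the other 3 groups by more than the SDs, and for BAX the groups differed by less than the SD of con-2c. The size of that difference depends on the CPM added, since BAD in con-2c and si-4c lay mostly below it: in con-2c the ratio was -7.72 with 0.1 CPM and -4.63 with 2 CPM, and in con-4c it was -4.03 and -3.35. Transcript length enters both ratios, so their levels cannot be read as relative abundance.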

How the data were processed

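SMART-seq cDNA from 12 pools of pig embryos, primed with oligo(dT) and amplified by PCR, was sequenced in pairs by the authors, who deposited gene counts. Amplified reads are not independent molecules, so the floors cover counting error only, while the intervals of the fit include the spread between libraries. Poly(A) length and abundance cannot be told apart. The submitters' processing notes name cutadapt 1.9, HISAT2 2.2.1, StringTie 2.1.6, DESeq2, edgeR and build Sscrofa11.1. The counting program, annotation release and use of strand are not given in the sources used here, so reads of overlapping genes may be shared. All 12 columns were matched to libraries by title, and the unmapped columns were 0.

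The 9 members and all gene and marker lists were chosen with earlier results of these data known. Members were matched by the table's symbols, and 127 other symbols were added from a name table, BAK1 among them. In edgeR 4.0.16 (R 4.3.3), genes were filtered by filterByExpr, libraries scaled by TMM, and 4 group means fitted over all 12 libraries by the quasi-likelihood method. The common biological coefficient of variation was 27.3%. P-values were adjusted by Benjamini-Hochberg over 17995 genes, and a call needed an adjusted p below 0.05 and a 2-fold change, the study's thresholds. CPM use the TMM-scaled totals. For correlations, CPM were put on a log2 scale with a prior count of 2. The fit was tested on simulated data. Named genes were all members, CASP6, CCNB2, the 3 genes most like each member, and from each list examples of the called genes with the smallest p and a mean of at least 1 CPM. Some genes of the rule are not reported here. BCL2, BMF and the APAF1 and CYCS values, with VIM, PTX3, LHCGR, AKAP4, PTPRC, YWHAB, YWHAQ, YWHAH, YWHAZ, SFN, BTG4 and BMP15, were added after their values were seen. Coordinates are RefSeq's on Sscrofa11.1.

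Alternatives were library totals, DESeq2 1.42.0, limma voom 3.58.1, no filter on low counts, at least 10 CPM in 3 libraries, the groups compared alone, other call rules, each library left out and the replicate number as a block.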

Additional observations from a re-analysis of the deposited data

Results flagged for a closer look

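In 5 members the change from the 2c to the 4c title differed between siRNA and control embryos, by the interaction term in edgeR. The log2 difference, siRNA minus control, was -7.67 for BID (SE 0.89, adjusted p = 2.13e-06), -6.77 for MCL1 (SE 0.44, adjusted p = 1.53e-09), -5.66 for BAD (SE 1.31, adjusted p = 0.00203), -5.27 for BCL2L11 (SE 1.29, adjusted p = 0.00303) and -8.11 for CASP9 (SE 3.08, adjusted p = 0.0435). For MCL1, BID and BCL2L11 all 3 siRNA libraries of the 4c title lay below all 3 of the 2c title, and all 3 control libraries of the 4c title lay above all 3 of the 2c title. For BAD the controls were separated in this way and the siRNA libraries overlapped. The value for CASP9 is fitted against a group at 0 counts and is no measure of size, and its call held in 5 of 17 alternatives. Without si-4c replicate 1 the difference was -8.21 for BAD and -8.94 for BID. Of all genes tested, 22.5% were called lower and 9.87% higher for the interaction.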

How the results depend on the processing

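The 49 results of single members were computed under 884 alternatives in all, of which 846 kept the side of the threshold, 23 of these with the sign of a value that did not pass turned, 14 no longer passed, 24 passed in addition (11 of them at 2-fold or more) and 0 turned the direction of a value that passed. With at least 10 CPM in 3 libraries, MCL1 and BCL2L1 were the only members left to test, so the members called fell to 1 in con-4c versus con-2c, 1 in si-2c versus con-2c, 1 in si-4c versus con-4c, 1 in si-4c versus si-2c and 1 in the interaction. In si-2c versus con-4c, 2 were called by limma voom, 1 with no filter on low counts and 2 with both groups compared alone, against 0, and the cause was not tested. Leaving out each library in turn gave 3 to 4 members called in con-4c versus con-2c, 2 to 2 in si-2c versus con-2c, 4 to 4 in si-4c versus con-4c, 2 to 3 in si-4c versus si-2c, 0 in both crossed comparisons and 4 to 5 in the interaction.

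Deviations of same-numbered libraries from their group means had mean correlations of -0.03 to 0.02 by pair of groups. Between other-numbered libraries these were -0.01 to 0.01. What the replicate numbers share was not tested. With the replicate number as a block the interaction of CASP9 no longer passed (adjusted p = 0.0761), and the members called went from 5 to 4 there and stayed at 3, 2, 4, 3, 0 and 0 elsewhere.

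Library totals in place of TMM factors moved the median of all genes from 0.11 to 0.38 in con-4c versus con-2c, 0.12 to 0.52 in si-2c versus con-2c, -0.11 to -0.37 in si-4c versus con-4c and -0.13 to -0.51 in si-4c versus si-2c. By totals BCL2L1 passed in si-2c versus con-2c (0.60), si-4c versus si-2c (-0.61) and the interaction (-0.75). With 0.1 CPM added, the log2 ratio of BAX to BCL2L1 was -6.94 in con-2c, -7.05 in si-4c, -7.90 in si-2c and -7.69 in con-4c, and with 2 CPM it was -4.45, -4.57, -4.84 and -4.53. That of BAD to BCL2L1 was, in this order of groups, -7.72, -7.95, -6.40 and -4.03 with 0.1 CPM and -4.63, -4.64, -4.58 and -3.35 with 2 CPM. By Spearman in place of Pearson correlation, 0 of the 3 genes most like BCL2L1, MCL1, BAD and BCL2L11 were shared, 1 for BID and CASP9 and 2 for BAX. BAX, BAK1 and CASP9 had few counts, with several libraries at 0 counts, and the cause was not tested.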
